A study of Homo sapiens with 4 samples.

Results

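SMAD1 occupancy was examined at TFAP2A, TFAP2B and TFAP2C, 3 genes of the AP-2 transcription factor family. The genes were selected by name with results of these data already known, namely which genes had SMAD1 peaks nearby. The peaks were then taken by position alone, as every peak of either deposited list within 100 kb of the gene body on build hg19. This gave 10 peaks of 12885 in all, of which 8 came from the BMP4 list of 7682 peaks and 2 from the untreated list of 5203 peaks. Because the position of the peaks was the rule, their presence is given as a description and no test was made of it.

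The data came from H1, a widely used line of human embryonic stem cells (hESCs), kept in mTeSR1 medium on growth factor-reduced Matrigel. Chromatin bound by SMAD1 was recovered with an antibody (ChIP-seq) from untreated cells (0 min) and from cells given BMP4 at 50 ng/ml for 60 min. Of 4 samples, the 2 ChIP samples have a peak list, and the 2 inputs entered through the peak calling of the authors. Both groups are the same single line in the same medium, and each list was made after the replicates had been merged, so values come without a replicate error and the conditions were compared without a test. The lists do not give the sequencing depth of either library.

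BMP4 binds receptors at the cell surface, which phosphorylate SMAD1 and its close relatives. Phosphorylated SMADs join SMAD4, move to the nucleus and bind DNA, often together with other factors. TFAP2A encodes AP-2alpha, a regulator of surface ectoderm and neural crest. TFAP2B encodes AP-2beta, which acts in neural crest and kidney development. TFAP2C encodes AP-2gamma, which acts in trophoblast and in germ cell precursors. AP-2 genes are known as early BMP-responsive genes in ectoderm and trophoblast. Peak lists hold no measure of expression, so the lineage roles of the genes could not be checked in these samples.

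The 3 loci differed in which list held their peaks. TFAP2A had 8 BMP4 peaks and 0 untreated peaks, TFAP2B had 2 untreated peaks and 0 BMP4 peaks, and TFAP2C had no peak in either list. None of the 10 peaks overlapped a peak of the other list, which follows from these counts. Lack of a partner was the usual state in both lists, as 87.3% of all BMP4 peaks and 81.7% of all untreated peaks had none.

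**Figure D1:**
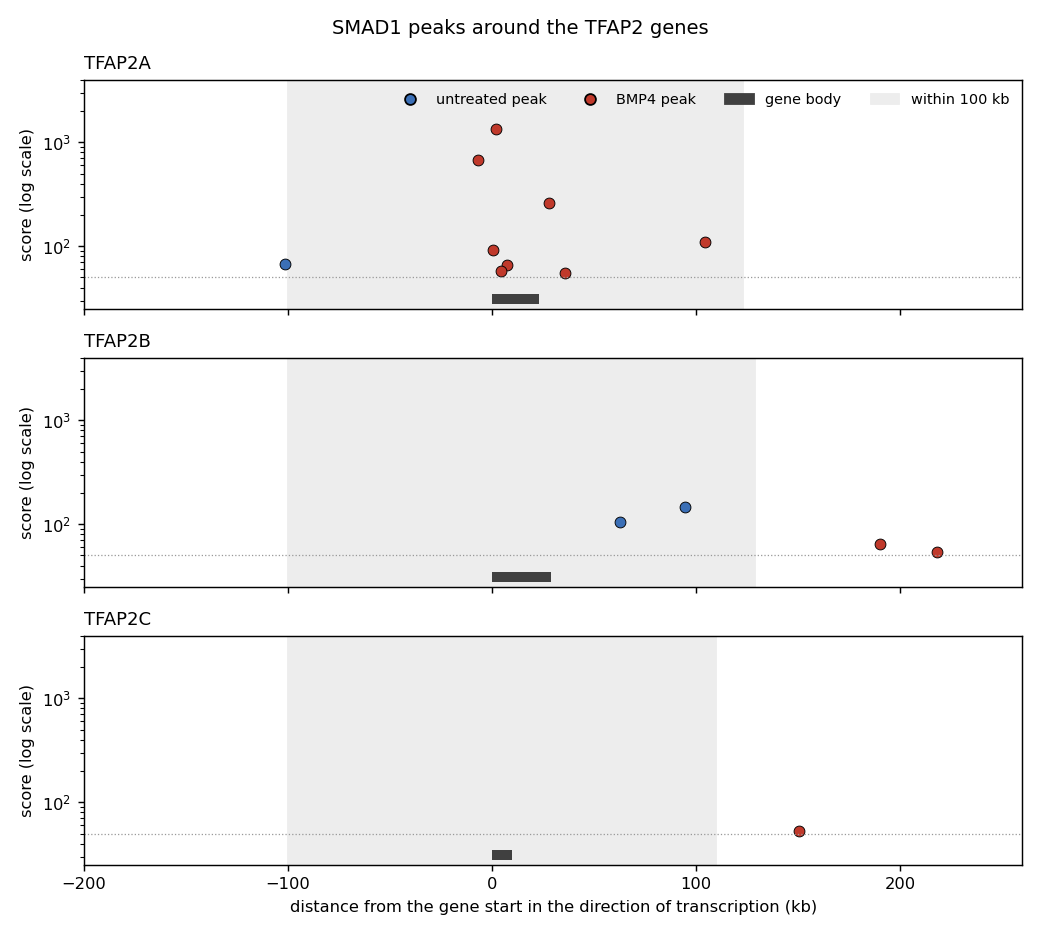
Peaks of both lists around each gene, by distance of the peak midpoint from the gene start in kb (horizontal axis) and by score on a log scale (vertical axis). Red points are BMP4 peaks, blue points are untreated peaks, dark bars are gene bodies, shading is the region within 100 kb of the gene and the dotted line is the lowest listed score of 50. The TFAP2A region holds 8 red points and no blue point, the TFAP2B region 2 blue points, and the TFAP2C region none.

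TFAP2A lies on chromosome 6 from 10396916 to 10419797 (hg19) on the minus strand, so its start is at the higher coordinate. Of its 8 BMP4 peaks, 4 touched the gene body, 3 lay beyond the end of the gene and 1 lay upstream of the start. The annotation of RefSeq (GRCh38.p14) places the antisense RNA genes TFAP2A-AS1 and TFAP2A-AS2 across TFAP2A, and SLC35B3 and GCNT2 as the adjoining protein-coding genes. Peaks carry no strand, so some of those inside the gene body could belong to the antisense genes, whose extents were not compared with the peaks. Exons and introns of this annotation were not used, since its build is not that of the peaks.

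The start of TFAP2A was covered by a BMP4 peak. This peak ran from 10419170 to 10419915, from 627 bp inside the gene to 118 bp upstream of it. It was 746 bp wide and scored 92.54, where the score is the value given by the authors' peak caller and rises with the evidence for a peak over input. At least this score was held by 22.8% of BMP4 peaks. The sequence around an annotated start is shown because this peak lies across the start. It is a window of 300 bases around a RefSeq start, most of it upstream, on GRCh38.p14 at chr6:10419610-10419909, minus strand, read 5′ to 3′, with capitals at the SMAD motif GTCT or its reverse complement AGAC.
TFAP2A: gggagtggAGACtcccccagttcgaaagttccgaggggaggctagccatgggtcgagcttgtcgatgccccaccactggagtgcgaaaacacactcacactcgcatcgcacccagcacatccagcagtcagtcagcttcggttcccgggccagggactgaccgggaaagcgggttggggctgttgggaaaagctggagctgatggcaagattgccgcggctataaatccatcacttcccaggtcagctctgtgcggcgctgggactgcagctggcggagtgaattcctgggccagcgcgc

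This promoter held 1 match to GTCT on either strand. Across 35116 RefSeq promoters of the same length, 84.0% held at least 1 match, with a median of 2. The GC-rich SMAD motif GGCGCC had 0 matches, against 19.2% of all promoters with 1 or more, and the AP-2 motif GCCNNNGGC also had 0, against 23.2%. GGCGCC and GCCNNNGGC read the same on both strands, and with 1 match in all no motifs overlapped here. The GC content was 61.7%, with a median of 58.7% over all promoters (quartiles 47.0 and 68.0). RefSeq lists a further start inside TFAP2A, whose promoter had 3 matches to GTCT and a GC content of 68.0%. The TFAP2B promoter had 6 matches to GTCT and a GC content of 43.0%, and no peak lay near it. Neither of these held GGCGCC or GCCNNNGGC. TFAP2C had no entry among the promoters used, so its promoter was not searched for motifs. The TFAP2A gene model of RefSeq was 101 bp longer than the hg19 gene body used here, and the peak reached only 118 bp past the start of that gene body, so at most a part of the printed window can lie under the peak. How much was not determined, and the motif counts are those of the window, not of the peak.

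The highest score at TFAP2A was held by a peak just inside the gene. It ran from 10417022 to 10418414, with its midpoint 2.08 kb downstream of the start. Its score was 1343 and its width 1393 bp, which placed it at rank 295 of 7682 by score and at rank 458 by width. In the BMP4 list 321 peaks scored 1000 or more, and 9 of those had no untreated partner. This TFAP2A peak was among the 9 and ranked 3 by score among all BMP4 peaks without a partner. It lay 103 kb from the nearest untreated peak.

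The score after it belonged to the peak upstream of TFAP2A. It ran from 10426120 to 10427263, had its nearer edge 6.32 kb from the gene and had a width of 1144 bp. With a score of 670.83 it stood at rank 351 in the list and at rank 15 among BMP4 peaks without a partner. Both of these peaks were between 1000 and 2000 bp wide. BMP4 peaks of that width class numbered 1132 and had a median score of 177 (upper quartile 861), so the peak inside the gene exceeded the upper quartile and the upstream peak lay between the median and the upper quartile. In the same class 50.8% had no untreated partner.

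Beyond the end of TFAP2A the peak from 10391299 to 10392219 scored 261.31. It was 921 bp wide, lay 4.70 kb from the gene and had rank 547 by score. Farther in the same direction came a peak from 10383770 to 10384350, 12.6 kb from the gene, with a score of 55.28 and a width of 581 bp. The most distant member ran from 10315003 to 10315992, at 80.9 kb, with a score of 109.59 and a width of 990 bp. These 3 peaks fell in very different parts of the list, with 7.12%, 74.6% and 17.8% of BMP4 peaks at or above their scores.

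The remaining peaks inside TFAP2A were weak. From 10412364 to 10412996 a peak of 633 bp scored 65.71, and from 10415125 to 10415693 a peak of 569 bp scored 57.62. Their midpoints were 7.12 kb and 4.39 kb downstream of the start. The first lay close to the median of the BMP4 list, which was 63.29, and the second below it. RefSeq has the promoter window of the further TFAP2A start at chr6:10412342-10412641 on GRCh38.p14, coordinates close to those of the first peak. Builds were not converted, so whether that peak covers this start was not determined.

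**Figure D2:**
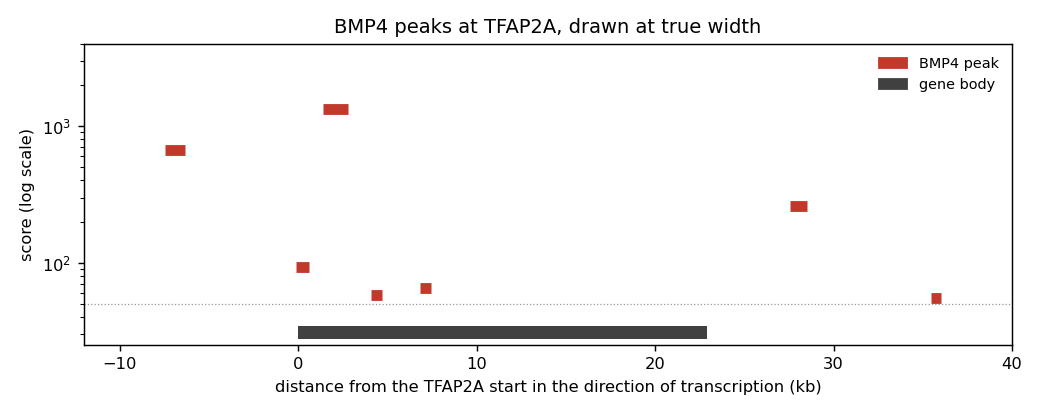
The 7 BMP4 peaks nearest to TFAP2A, each drawn at its true width at the height of its score (vertical axis, log scale), against distance from the gene start in kb (horizontal axis). Red bars are peaks, the dark bar is the gene body and the dotted line is the lowest listed score of 50. The scores of 1343 and 670.83 flank the start, and the peak that covers the start sits at 92.54.

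The TFAP2A peaks differed widely among themselves. Scores ran from 55.28 to 1343, with 6 of 8 above the list median, and 4 of 8 were at least 100, against 20.2% of all BMP4 peaks. Widths ran from 569 to 1393 bp, and 5 of 8 exceeded the list median of 674 bp. Score and width kept nearly the same order, with a Spearman rho of 0.95 across the 8 peaks, which share a library and a region. Over all 7682 BMP4 peaks rho was 0.69. Since a wider peak tends to score higher in these lists, neither measure is independent of the other.

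**Figure D3:**
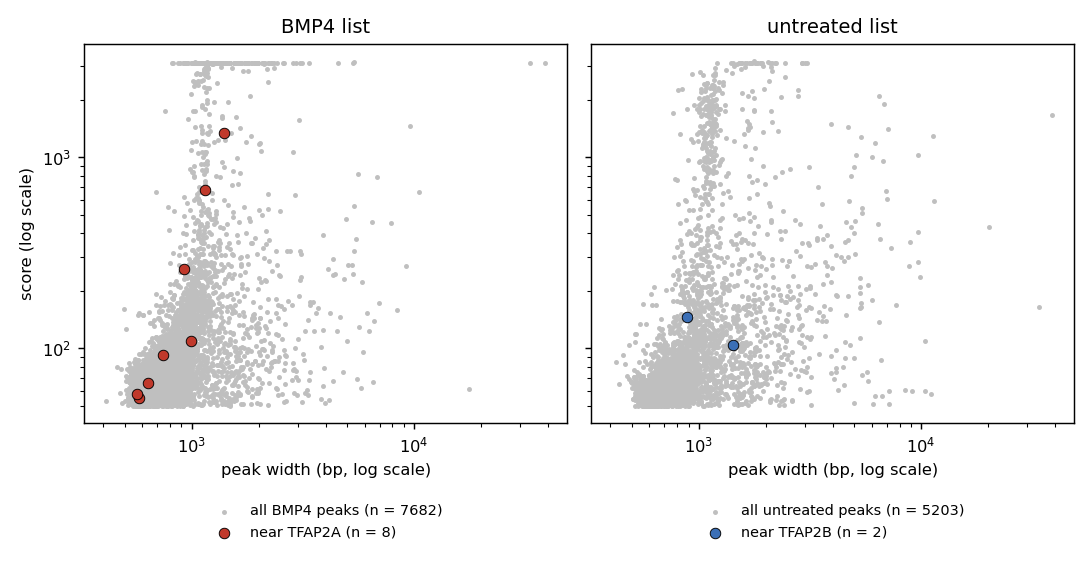
Width in bp (horizontal axis, log scale) and score (vertical axis, log scale) of every peak, with the BMP4 list on the left and the untreated list on the right. Grey points are all peaks of a list, red points the 8 near TFAP2A and blue points the 2 near TFAP2B. The TFAP2A points run from the low, narrow end to 1343 at 1393 bp, and the TFAP2B points sit at 104.15 and 146.39.

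The peaks at TFAP2A were crowded. Those with midpoints within 10 kb of the start numbered 5, and the gaps between adjoining peaks there were 2.13, 1.33, 0.755 and 6.20 kb. The 8 peaks together covered 6977 bp, spread over 112 kb from the first base to the last. In the TFAP2A region of 223 kb this was 35.9 BMP4 peaks per Mb, compared with 3.39 per Mb over chromosome 6 and 2.56 per Mb over all chromosomes. Of consecutive windows of the same length laid along the genome, 0.208% held at least 8 BMP4 peaks (28 of 13470 windows, counted by peak midpoints). On chromosome 6 lay 10 of the 28. The gene had been chosen with nearby peaks known, so the density and this share only describe the region.

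Untreated peaks were frequent among the crowded BMP4 peaks of the list. Each TFAP2A peak had at least 4 other BMP4 peaks with midpoints within 100 kb, as did 8.84% of all BMP4 peaks, and 4 of the 8 had 7 others, a number reached by 4.78%. Of the 679 peaks with at least 4 such neighbours, 60.5% overlapped an untreated peak, and of the 367 with at least 7, 74.9% did. At TFAP2A 0 of 8 did, which follows from the 0 untreated peaks near the gene and is not a further result. The limits of 4 and 7 neighbours were those of the TFAP2A peaks themselves. Over the whole list 87.3% of BMP4 peaks had no untreated partner. The crowded peaks include many with the highest scores, as 146 of the 679 scored 3100 or more and 171 lay on chromosome 6. The authors described nonspecific enrichment at regions of transfer RNA genes, and its part in these shares was not tested. Without the peaks scored 3100 or more the shares with an untreated partner were 49.7% and 63.1%. Without chromosome 6 as well they were 47.9% and 58.9%, and both exclusions were made after the data had been seen. These subsets still include crowded groups with lower scores, such as 18 peaks on chromosome Y from 13800651 to 13870432 (13 with a partner, top score 174.15). Measured from peak to peak, 7 of the 8 had no untreated peak within 100 kb, compared with 60.2% of all BMP4 peaks and 6.77% of the 679. For peaks wholly inside the gene this was set in advance, since no untreated peak lay within 100 kb of the gene. All 8 have the same nearest untreated peak, 93.8 to 205 kb away, so they are not separate observations. The 28 windows with at least 8 BMP4 peaks held between 1 and 28 untreated peaks, with a median of 10, so 0% of windows had such a number of BMP4 peaks and no untreated peak. The windows were laid from the first peak of each chromosome and do not coincide with the TFAP2A region. That region itself holds 8 BMP4 peaks and 0 untreated peaks, so the 0% depends on where the windows were laid. It does not show that such regions are absent. These comparisons describe positions and were not tested.

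**Figure D4:**
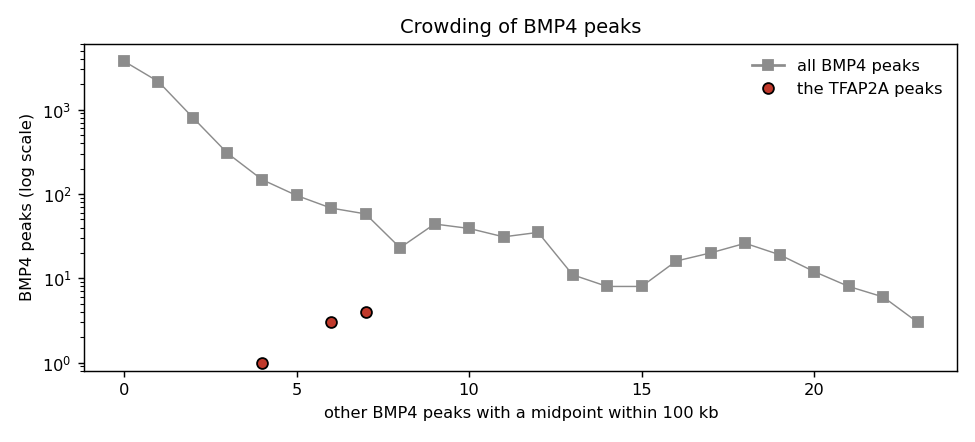
Number of BMP4 peaks (vertical axis, log scale) by how many other BMP4 peaks have midpoints within 100 kb (horizontal axis). Grey squares are all 7682 BMP4 peaks and red points the 8 at TFAP2A. Of the latter, 1 has 4 neighbours, 3 have 6 and 4 have 7.

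The absence of untreated peaks at TFAP2A was bounded by the distance limit. Just outside it, upstream of the gene at 101 kb, an untreated peak ran from 10521070 to 10521993, with a score of 66.87 and a width of 924 bp. It had no BMP4 partner, and the nearest BMP4 peak was the upstream TFAP2A peak, 93.8 kb away. On the other side the nearest untreated peak was 513 kb from the gene. BMP4 peaks outside the limit began at 483 kb upstream and 1840 kb downstream, so no further BMP4 peak adjoined the set. For sites missing from the untreated list it is known only that they did not reach a score of 50 in untreated cells.

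TFAP2B lies on chromosome 6 from 50786439 to 50815326 (hg19) on the plus strand, between TFAP2D, which encodes AP-2delta, and PKHD1 in the RefSeq order. Its peaks were both untreated and both beyond the end of the gene. The nearer ran from 50848395 to 50849817, at 33.1 kb, with a width of 1423 bp and a score of 104.15. The farther ran from 50880459 to 50881343, at 65.1 kb, with a width of 885 bp and a score of 146.39. Here the narrower peak had the higher score.

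The TFAP2B peaks were above the middle of the untreated list. Their scores stood at ranks 1065 and 752 of 5203, and both reached 100, as did 21.3% of untreated peaks. Neither touched the gene, and neither lay near its start. The nearest BMP4 peak, from 50976422 to 50977061 with a score of 64.10, was 127 kb from the nearer and 95.1 kb from the farther peak, and 161 kb from the gene. Of all untreated peaks, 41.1% had no BMP4 peak within 100 kb, and 48.9% had another untreated peak within 100 kb.

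Windows with at least as many untreated peaks as the TFAP2B region were more common than those matching the BMP4 count at TFAP2A (0.208%). The counts to be matched were 2 and 8, so this order was to be foreseen and does not compare the loci. The genes were chosen with nearby peaks known, so the shares describe these regions and give no measure of rarity. The TFAP2B region of 229 kb held 8.74 untreated peaks per Mb, compared with 2.09 per Mb over chromosome 6 and 1.73 per Mb over all chromosomes. At least 2 untreated peaks were found in 6.54% of windows of that length, and at least 2 untreated peaks without a BMP4 peak in 2.19%. Outside the limit, the next untreated peaks were 930 kb upstream and 1360 kb downstream of TFAP2B, and the next upstream BMP4 peak, with a score of 60.85, was at 232 kb.

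TFAP2C lies on chromosome 20 from 55204358 to 55214338 (hg19) on the plus strand, between FAM209B and BMP7 in the RefSeq order. BMP7 encodes a BMP ligand. No peak of either list lay within 100 kb of TFAP2C. A region of this length without a peak was common, at 51.6% of windows. The nearest BMP4 peak ran from 55354425 to 55355019, 140 kb downstream of the gene, with a score of 52.65 close to the lowest listed value and a width of 595 bp. The nearest untreated peak was 926 kb downstream, with a score of 227.48. The nearest upstream peaks were 1160 kb away in the BMP4 list and 1510 kb away in the untreated list. Binding at TFAP2C below a score of 50 was not detectable from the lists.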

How the data were processed

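Per the study's methods and the submitters' processing notes, the authors aligned reads to hg19 with BWA 0.7.5a, merged replicate ChIP and replicate input samples, and called peaks with MACS 1.4.2 at default settings. The deposited lists hold many times more peaks than the study states, and the order of the conditions by peak number is the reverse, so they may come from another run or lack a filter, and ranks and shares here need not hold for the peaks the study used. The deposited score was taken to be −log10 of the p-value against input multiplied by 10, with a minimum of 50 in both lists. It depends on depth and width, so peaks were ranked only within their list. The members and the comparisons were chosen with earlier results of these data known.

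Gene bodies were those given for hg19, and distances were from edge to edge. A partner was a peak of the other list sharing at least 1 bp. By rule, every peak within 100 kb was named, and outside it the nearest peaks on each side. Distances and overlaps were tested on simulated lists. Strands came from GENCODE v44, and promoters, gene order and names from RefSeq GRCh38.p14, with no conversion between builds. Python 3.11.15, numpy 2.4.6, pandas 2.3.3, scipy 1.17.1 and matplotlib 3.10.9 were used. Alternatives varied the distance limit, the overlap rule, the score and the width.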

Additional observations from a re-analysis of the deposited data

How the results depend on the processing

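A count of peaks was taken as moved when it changed by over 1.5 times, and a share of a list when it left its 95% exact binomial limits. These limits served only as a cut-off, since a share of a complete list has no sampling error and neighbouring peaks are not independent. At 200 kb and at 500 kb TFAP2A gained 1 untreated peak, TFAP2B had 2 and 4 BMP4 peaks, and TFAP2C had 1 and 2. At 50 kb TFAP2B kept 1 untreated peak. A minimum score of 100 left 4 BMP4 peaks at TFAP2A. No other alternative moved a count of peaks. With the BMP4 list shortened by score to the length of the untreated list, an alternative chosen after the data had been seen, TFAP2A had 7 BMP4 peaks. The number of peaks with a partner was 0 for each gene and list under all 5 alternatives for it, including gaps of up to 10 kb. A stricter overlap or score could not raise a count of 0. No member had a peak of the other list closer than 93.8 kb, so gaps of up to 10 kb could not either. Only the limit of 200 kb left the outcome open. The share of BMP4 peaks with as many BMP4 neighbours as each TFAP2A peak was 100% at 50 kb, where the most distant member has 0, and 7.19% at 200 kb.

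The standing of single peaks depended on how they were ranked. In order of position along TFAP2A, the share of the chromosome 6 BMP4 peaks at or above each score was 34.8, 79.1, 26.2, 55.7, 72.8, 21.4, 37.9 and 23.3%. Ranked by width over the whole list, the shares that moved were 90.9, 22.9, 59.3, 95.6, 6.0, 39.0 and 11.0%, and that of the most distant peak stayed the same within its limits. For the TFAP2B peaks the shares were 43.3 and 39.4% within chromosome 6, and 11.1 and 30.5% by width. The cause was not tested. No paired analysis was possible because replicates were merged into a single list for each condition.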

Other observations

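The crowding at TFAP2A was also set against groups of BMP4 peaks joined wherever the gap was at most 10 kb, a description chosen after the data had been seen. The BMP4 list formed 6930 such groups, single peaks included. Groups of at least 5 peaks numbered 33, or 0.476%, and the group from 10412364 to 10427263 at TFAP2A, with 5 peaks over 14.9 kb, was among them. The minimum of 5 was the size of the TFAP2A group itself, so its place among the 33 was fixed. In 5 of the 33 no peak had an untreated partner. These were the TFAP2A group, with a top score of 1343, and groups on chromosome 1 from 23880787 to 23895422 (top score 783.58), chromosome 10 from 8091852 to 8105420 (368.54), chromosome 1 from 2588637 to 2606562 (128.62) and chromosome 10 from 42794287 to 42815726 (89.02). The TFAP2A group had the highest top score of the 5 and covered 4485 bp. In 3 of the 5 the nearest untreated peak was over 100 kb away, and at TFAP2A it was 93.8 kb away.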
